A study of Homo sapiens with 6 samples.

Results

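The SLCO genes encode the organic anion transporting polypeptides (OATPs), carriers in the cell membrane that take up thyroid hormones, prostaglandins, bile acids, bilirubin, steroid sulfates and many drugs. They were examined by RNA sequencing in cells labelled HepG2, a human liver cancer line. The cells had received an siRNA that targets the long non-coding RNA HOTAIR (siHOTAIR), or a control siRNA (siNC). The genes were selected by symbol: 9 were named (SLCO1B1, SLCO1B3, SLCO1C1, SLCO2A1, SLCO2B1, SLCO3A1, SLCO4A1, SLCO4C1 and SLCO5A1), and 7 of them had a row among the 19589 features of the authors' deposited table. SLCO2B1 and SLCO5A1 were not analysed here. The family was picked with its fold changes and adjusted p-values in that table already known, so those values are given as a description and support nothing.

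The labels list 3 siHOTAIR and 3 siNC libraries, with nothing on genotype or time after transfection. The authors' deposited table holds means and fold changes but no value per library. Because each mean is built from whole reads of 5 libraries, the reads of each library could be recovered for 18690 features, the 7 SLCO genes included. These libraries are 3 of siHOTAIR, called a, b and c, and 2 of siNC, called a and b, with 4116677 to 5476308 recovered reads each. Recovered reads are not the full depth of a library. The recovered features hold 49.3% of the summed means, and the 770 features with a mean above 2000 were not tried. The remaining siNC library does not enter the means. A normalized count is the number of reads divided by the library's size factor, a scale for sequencing depth. Separate cultures are not mentioned in the labels, and the p-values then reflect only how far these libraries vary, which could be technical variation.

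Within the liver, OATP1B1 and OATP1B3, the products of SLCO1B1 and SLCO1B3, take up bilirubin and bile acids from portal blood, while OATP1C1 is known for carrying thyroxine into the brain. OATP2A1 is the prostaglandin transporter, OATP4C1 is a kidney carrier, and OATP3A1 and OATP4A1 are found in many tissues. OATPs work without ATP, and their substrates leave cells mainly through ATP-driven exporters of the ABC family.

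The targeted RNA was lower in the siHOTAIR libraries. HOTAIR had 62.4, 78.2 and 59.7 normalized counts in siHOTAIR libraries a, b and c, against 202 and 150.1 in siNC libraries a and b. No siHOTAIR library reached either siNC library. The label HepG2 was set against 18 genes that mark hepatocytes, of which 10 had a row. Of these, 8 (APOA1, APOA2, TF, SERPINA1, FGB, AHSG, RBP4 and CYP3A4) had a mean under 1 normalized count, with 1 to 5 reads each over all 5 libraries. They summed to 2.6, 4.28 and 1.13 normalized counts in siHOTAIR libraries a, b and c and to 5.86 and 0 in siNC libraries a and b. ASGR1, a receptor of the hepatocyte surface, had a mean of 9.79, and CPS1, a urea cycle enzyme, had a mean of 23334 in the authors' deposited table. The plasma protein genes of this list that had a row were thus at or near 0 in both groups, which goes against the label. Other hepatocyte genes of the list, ALB, AFP and APOB among them, had no row, so their level is not known here. Of 16 markers of other cell types, 12 had recovered reads. Their summed normalized counts, which leave out the more abundant KRT7 and VIM, were 2407, 2558 and 2763 in siHOTAIR libraries, against 1530.4 and 1526 in siNC libraries. COL1A1, a fibrillar collagen, made up most of that sum, with 1755, 1929 and 2144 in siHOTAIR libraries against 1051 and 1078 in siNC libraries. The keratin KRT7 and the filament gene VIM, not recovered and so not in the sum, had means of 11514 and 5622 in the authors' deposited table. Their log2 fold changes there were -0.06 and 0.36, so the sum does not give the change of these markers as a whole. The epithelial marker EPCAM had a mean of 0.173 in that table. Of the 11 markers of other cell types with an adjusted p in the authors' deposited table, 4 (COL1A1, PDGFRB, VIM and VWF) rose and 1 (CD68) fell. These are 36.4 and 9.09%, against 20 and 20.4% of all features. Among them VWF rests on few reads, with 6.93, 5.35 and 13.5 normalized counts in siHOTAIR libraries, against 0 and 1.12 in siNC libraries. The part of these markers in the SLCO results was not tested.

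Of the 7 SLCO genes, 5 had enough reads for an adjusted p in the authors' deposited table. SLCO1C1 and SLCO3A1 were higher and SLCO2A1 and SLCO4A1 lower in siHOTAIR than in siNC at an adjusted p under 0.05, while SLCO1B3 did not pass. In that table a share of 40.4% of the 14597 features with an adjusted p passed, 20% higher and 20.4% lower in siHOTAIR. With an additional threshold of 2-fold, SLCO1C1, SLCO3A1 and SLCO2A1 remained, and 6.25% of all tested features did. Groups of libraries that do not overlap were common. They were found, in either direction, in 67.3% of the 11327 features with recovered reads and a mean of at least 20. The 5 SLCO genes with an adjusted p are among them. SLCO1C1 reached that mean only through siHOTAIR (79.4 against 9.5 in siNC), and SLCO2A1 only through siNC (46.3 against 10.3 in siHOTAIR). For both, the filter favours groups that do not overlap, so the lack of overlap is a description only. In a bulk sample, fewer cells that express a gene and less RNA per cell cannot be told apart.

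**Figure D1:**
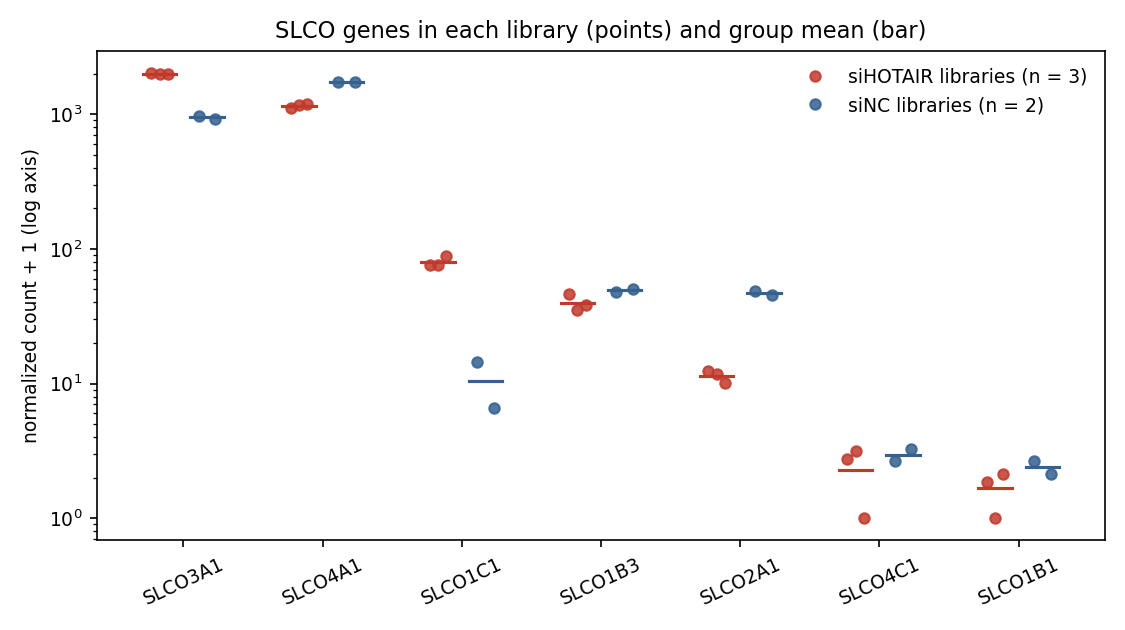
Normalized counts plus 1 on a log axis for each of the 7 SLCO genes, with 1 point per library (siHOTAIR left, siNC right) and a line at the group mean. The siHOTAIR points lie above the siNC points for SLCO3A1 and SLCO1C1 and below them for SLCO4A1, SLCO1B3 and SLCO2A1, and SLCO4C1 and SLCO1B1 are close to 0 in all 5 libraries.

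Among the carriers known for thyroid hormone, the largest difference was in SLCO1C1 (chromosome 12, gene ID 53919), which encodes the high-affinity thyroxine carrier OATP1C1. It had 75.4, 74.9 and 87.9 normalized counts in siHOTAIR libraries a, b and c, against 13.4 and 5.6 in siNC libraries a and b. The lowest siHOTAIR library was 5.59 times the highest siNC library. These counts rest on 87, 70 and 78 reads in siHOTAIR libraries, against 16 and 5 in siNC libraries, with exact 95% Poisson intervals of 9.15 to 26 reads for siNC library a and 1.62 to 11.7 for siNC library b, which cover counting error only. The control level is therefore the less certain side of the comparison. In the authors' deposited table the log2 fold change was 2.72 with a standard error of 0.338 and an adjusted p of 2.4e-14, which is 6.57-fold higher in siHOTAIR. That estimate is shrunken toward 0 by the authors' fit, and the ratio of the recovered group means was 8.36. With limma on the recovered reads the log2 fold change was 3.04, and it was 3.60 without siNC library a and 2.48 without siNC library b, with adjusted p-values of 1.32e-13 and 4.01e-10. Its size stood at place 3 among the 2809 features with a mean of at least 20 that were higher in siHOTAIR at an adjusted p under 0.05 in the authors' deposited table. SLCO1C1 reached that mean only through siHOTAIR, with 79.4 against 9.5 in siNC. The place restates values known when the family was picked and is a description only.

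SLCO4A1 (chromosome 20, gene ID 28231) encodes OATP4A1, a widely expressed carrier of triiodothyronine and bile acids. It had 1115, 1167 and 1193 normalized counts in siHOTAIR libraries, against 1735 and 1742 in siNC libraries. Every siHOTAIR library was lower than either siNC library, and the siNC libraries were nearly equal. Groups without overlap, in either direction, were the more frequent case among features with a mean of at least 20 (67.3%). The authors' deposited table gives a log2 fold change of -0.58 with a standard error of 0.0719 and an adjusted p of 1.08e-14, which is 1.5-fold lower in siHOTAIR. SLCO4A1 is not in the authors' shorter filtered list, which holds 3.91% of all features and includes SLCO1C1, SLCO3A1 and SLCO2A1. An antisense gene, SLCO4A1-AS1, overlaps this locus. It had 51.1, 70.7 and 78.9 normalized counts in siHOTAIR libraries, against 86.2 and 57.1 in siNC libraries, and these groups overlap. Its adjusted p in the authors' deposited table was 0.744. The library kit keeps strand, but whether the counting used it is not given, so reads of SLCO4A1 and its antisense partner may not be fully separated.

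SLCO3A1 (chromosome 15, gene ID 28232) encodes OATP3A1, a broadly expressed carrier of prostaglandins and thyroxine. It had 2020.2, 1988 and 1970.3 normalized counts in siHOTAIR libraries, against 969 and 921 in siNC libraries. The siHOTAIR libraries all lay far above both siNC libraries, with little spread inside either group. Its log2 fold change in the authors' deposited table was 1.07, with a standard error of 0.0719 and an adjusted p of 7.59e-48, which is 2.1-fold higher in siHOTAIR. SLCO3A1 was also the most abundant of the 7 genes by mean normalized count, with 1574, which put it at place 1072 of all features in the authors' deposited table. That mean pools 3 siHOTAIR and 2 siNC libraries. In siNC alone SLCO4A1 was the higher, with a mean of 1738 against 945 for SLCO3A1.

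The prostaglandin transporter gene SLCO2A1 (chromosome 3, gene ID 6578), whose product clears prostaglandins from the outside of cells, was the one with the strongest decrease. It had 11.3, 10.7 and 9.01 normalized counts in siHOTAIR libraries, against 47.7 and 44.8 in siNC libraries. These are 13, 10 and 8 reads in siHOTAIR libraries, against 57 and 40 in siNC libraries. The highest siHOTAIR library lay far below the lower siNC library. Exact 95% Poisson intervals were 6.92 to 22.2, 4.8 to 18.4 and 3.45 to 15.8 reads in siHOTAIR libraries a, b and c. In siNC libraries a and b they were 43.2 to 73.9 and 28.6 to 54.5 reads. The spread inside each group was small, but with so few reads it does not show that the siHOTAIR level is precise. In the authors' deposited table its log2 fold change was -1.93, with a standard error of 0.365 and an adjusted p of 1.04e-06, or 3.81-fold lower in siHOTAIR, and the siNC mean was 4.48 times the siHOTAIR mean in the recovered reads.

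The liver carriers differed less or were hardly detected. SLCO1B3 (chromosome 12, gene ID 28234), which encodes the hepatocyte uptake carrier OATP1B3, had 45, 34.3 and 37.2 normalized counts in siHOTAIR libraries, against 46.9 and 49.3 in siNC libraries. The groups do not overlap, but the gap between siHOTAIR library a and siNC library a is small against the spread within siHOTAIR. Of the 11327 features with recovered reads and a mean of at least 20, 67.3% had groups that do not overlap. The log2 fold change of SLCO1B3 in the authors' deposited table was -0.28, with a standard error of 0.278 and an adjusted p of 0.455. SLCO1B1 (chromosome 12, gene ID 10599), which encodes the statin and bilirubin carrier OATP1B1, had 1, 0 and 1 reads in siHOTAIR libraries, against 2 and 1 in siNC libraries. SLCO4C1 (chromosome 5, gene ID 353189), which encodes the digoxin carrier OATP4C1, had 2, 2 and 0 reads in siHOTAIR libraries, against 2 and 2 in siNC libraries. With 5 and 8 reads in all, no difference in these genes was detectable at this depth.

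The 5 genes with more than a few reads could also be tested on the recovered counts. Limma with a mean trend, fitted to log2 of the normalized count plus 1 over 11327 features, called 53.2% of them. It gave log2 fold changes of 3.04 for SLCO1C1, 1.08 for SLCO3A1, -0.59 for SLCO4A1, -2.07 for SLCO2A1 and -0.31 for SLCO1B3. SLCO1B3 again did not pass. These are the reads behind the authors' values and no separate evidence. SLCO1C1 and SLCO2A1 entered this fit, limited to a mean of at least 20, only through the group in which each is higher.

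**Figure D2:**
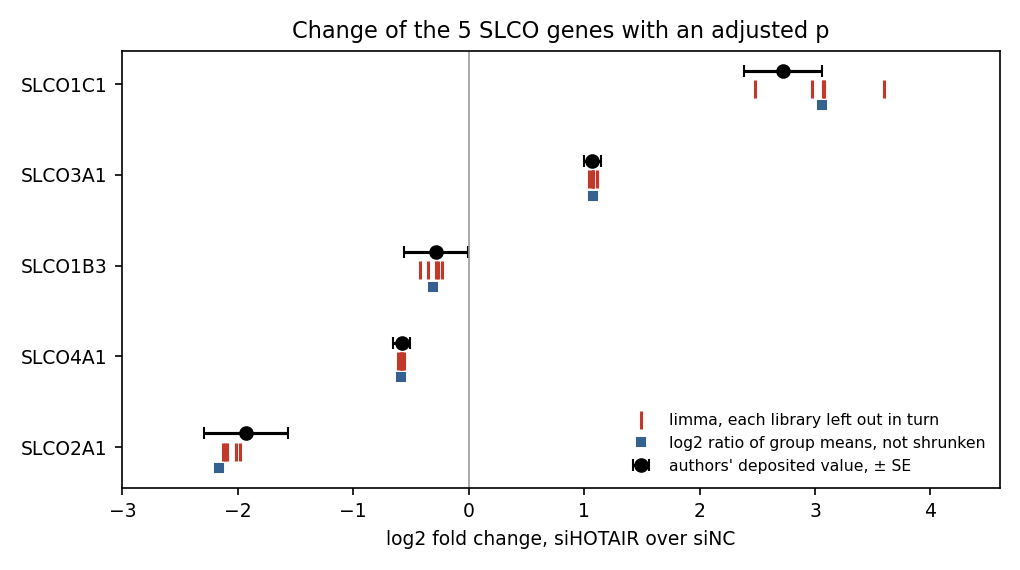
Log2 fold change of siHOTAIR over siNC for the 5 SLCO genes with an adjusted p: the authors' deposited value with its standard error (black), limma on recovered reads with each library left out in turn (red ticks) and the unshrunken log2 ratio of group means (blue squares). The red ticks of SLCO1C1 spread from 2.48 to 3.60, and those of SLCO3A1 lie between 1.04 and 1.11.

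Levels of different genes were compared per kilobase of their longest GENCODE 29 transcript. In the siHOTAIR libraries the mean normalized count per kilobase was 417 ± 14.3 for SLCO4A1 and 389.6 ± 4.94 for SLCO3A1 (SD, n = 3). Far lower came SLCO1C1 with 23.6 ± 2.18, SLCO1B3 with 13.7 ± 1.96 and SLCO2A1 with 1.18 ± 0.134, followed by SLCO1B1 with 0.298 ± 0.265 and SLCO4C1 with 0.242 ± 0.213. The last 2 did not differ beyond their spread. In the siNC libraries the order was SLCO4A1 with 626 ± 1.92, SLCO3A1 with 185 ± 6.59, SLCO1B3 with 16.9 ± 0.601, SLCO2A1 with 5.27 ± 0.234, SLCO1C1 with 2.82 ± 1.64, SLCO1B1 with 0.627 ± 0.176 and SLCO4C1 with 0.367 ± 0.0751 (SD, n = 2). SLCO1B1 and SLCO4C1 rest on 3 and 4 reads there. SLCO1C1 thus ranked above SLCO1B3 in the siHOTAIR libraries and below it in the siNC libraries. Per kilobase, SLCO1C1 was 1.41 to 1.99 times SLCO1B3 in siHOTAIR libraries, against 0.0959 to 0.241 times in siNC libraries.

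SLCO3A1 and SLCO4A1 moved in opposite directions and together held nearly all SLCO counts. Per kilobase, SLCO3A1 made up 47.2, 46 and 45% of the sum of the 7 genes in siHOTAIR libraries, against 22.5 and 21.6% in siNC libraries. SLCO4A1 made up 48, 49.7 and 50.2% in siHOTAIR libraries, against 74.3 and 75.4% in siNC libraries. These shares restate the opposite differences of the 2 genes given above, and the groups do not overlap in either. The sum itself was 837, 845 and 856 normalized counts per kilobase in siHOTAIR libraries, against 841 and 833 in siNC libraries, so these groups overlap. The sum and the order depend on the length chosen. With the median transcript length in place of the longest, the sum was 1224 ± 5.63 in siHOTAIR libraries and 1051 ± 12.9 in siNC libraries, and SLCO3A1 was 1.7 ± 0.0806 times SLCO4A1 in siHOTAIR libraries and 0.535 ± 0.0207 times in siNC libraries. SLCO2A1, whose longest transcript has 8774 bases of which 1932 are coding, then reached 5.38 normalized counts per kilobase in siHOTAIR libraries and 24.1 in siNC libraries. In siNC this places it above SLCO1B3, which had 21. With the longest transcript the ratios of SLCO3A1 to SLCO4A1 were 0.935 ± 0.0444 in siHOTAIR libraries and 0.295 ± 0.0114 in siNC libraries.

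**Figure D3:**
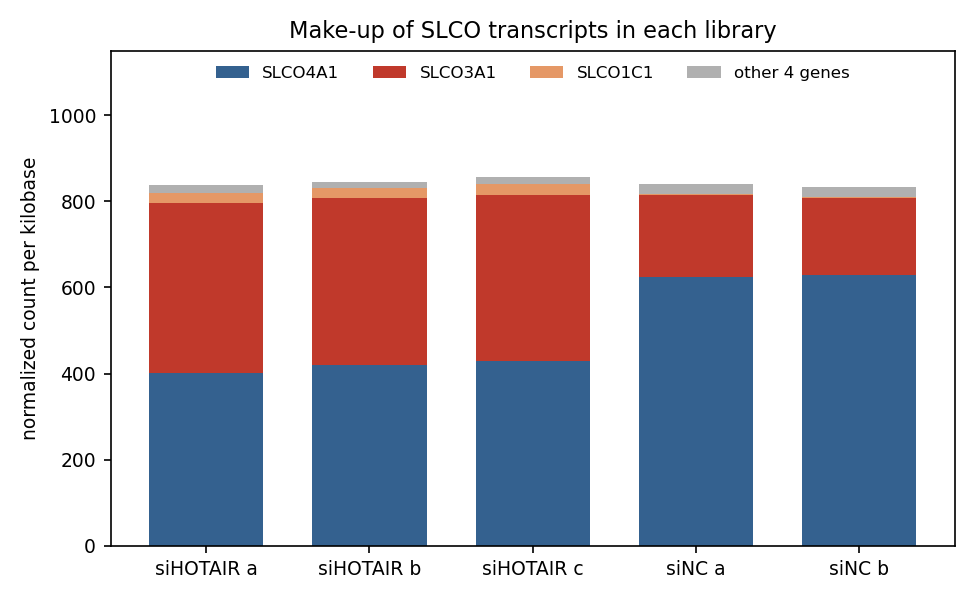
Stacked bars of normalized count per kilobase of the longest transcript for SLCO4A1, SLCO3A1, SLCO1C1 and the sum of the other 4 SLCO genes, 1 bar per library. The bars are of nearly equal height, 833 to 856, while the SLCO3A1 share is 45 to 47.2% in siHOTAIR libraries, against 21.6 to 22.5% in siNC libraries.

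The SLCO1 genes lie side by side on chromosome 12, in the order SLCO1C1, SLCO1B3, SLCO1B1 and SLCO1A2 among measured genes. SLCO1A2, which encodes another carrier of bile acids and thyroid hormones, had 1 read in all, in siNC library a. SLCO1B7, a gene copy between SLCO1B3 and SLCO1B1, had 1, 1 and 1 reads in siHOTAIR libraries, against 3 and 1 in siNC libraries. Inside the cluster, SLCO1C1 and SLCO1B3 had an adjusted p, and of these SLCO1C1 passed the threshold. Its measured neighbour outside the cluster, PDE3A, a cyclic nucleotide phosphodiesterase, had 1317, 1298 and 1298 normalized counts in siHOTAIR libraries, against 1885 and 1749 in siNC libraries. PDE3A fell in the authors' deposited table, with a log2 fold change of -0.48 and an adjusted p of 3.32e-10, opposite in direction to SLCO1C1. On the other side PYROXD1, an oxidoreductase, did not pass (adjusted p 0.668 in the authors' deposited table), and RECQL, a DNA helicase, fell there with a log2 fold change of -0.58 and an adjusted p of 0.000469. For the genes on other chromosomes, the 2 nearest measured genes on each side were looked up, and some of these have no adjusted p. Next to SLCO3A1, SV2B, a synaptic vesicle protein, rose with a log2 fold change of 1.53 and an adjusted p of 2.96e-07 by the authors' deposited table, and ASB9P1 did not pass. Next to SLCO4A1, the neurotensin receptor gene NTSR1 rose with 0.81 and an adjusted p of 1.02e-05 by the authors' deposited table, while GATA5 and SLCO4A1-AS1 did not pass. Near SLCO2A1, AMOTL2, a cell junction protein of the angiomotin family, fell with a log2 fold change of -0.88 and an adjusted p of 4.72e-21 by the authors' deposited table, and SRPRB, RAB6B and RYK did not pass. Near SLCO4C1, which itself had too few reads, PAM, a peptide-amidating enzyme, and FAM174A fell with log2 fold changes of -0.41 and -0.55 in the authors' deposited table, with adjusted p-values of 1.37e-05 and 0.0178.

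**Figure D4:**
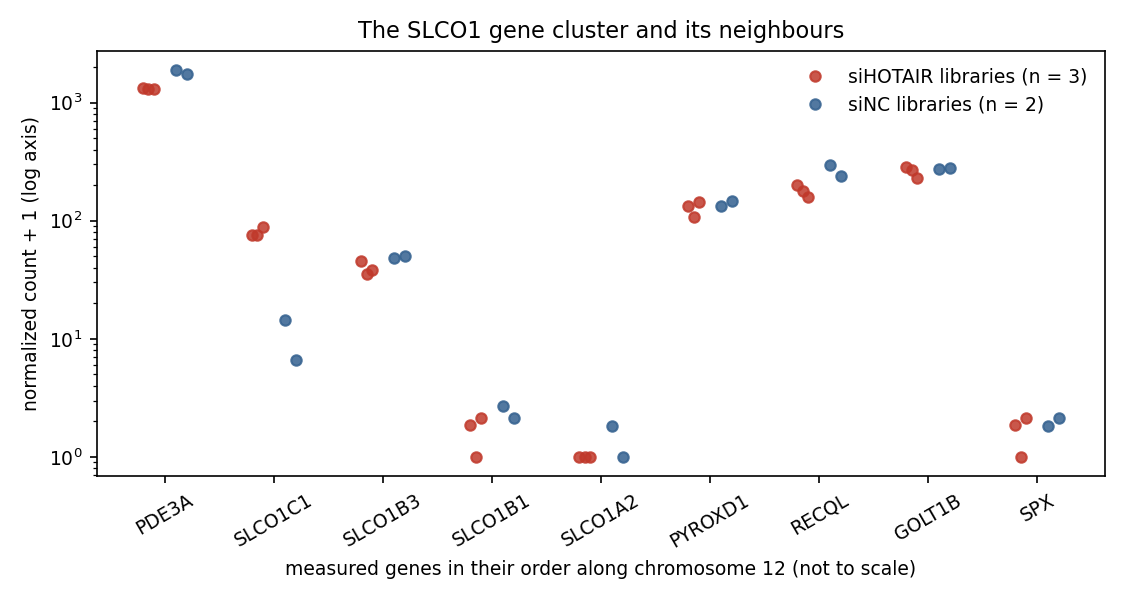
Normalized counts plus 1 on a log axis for measured genes with a RefSeq position in their order along chromosome 12, from PDE3A through the SLCO1 cluster to SPX, with 1 point per library (siHOTAIR left, siNC right). SLCO1C1 is the gene whose siHOTAIR points (74.9 to 87.9) lie far above its siNC points (5.6 and 13.4), while SLCO1B1 and SLCO1A2 stay near 0.

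SLCO1B1 and SLCO1B3 are close copies, which bears on both their counting and their promoters. Their coding sequences are 87.4% identical over 2076 aligned bases, against 54.9 to 64.1% for every other pair among the 7 genes. Reads can still be told apart over most of their length: of the 31-base words in the coding sequence of SLCO1B3, 2.12% also occur in SLCO1B1 transcripts and 10.4% in SLCO1B7 transcripts. How the authors counted reads that match several genes is not given. The RefSeq promoter table of GRCh38.p14 held 4 of the 7 genes (SLCO1B1, SLCO1B3, SLCO3A1 and SLCO4C1). The 250 bases before the start are shown for the pair of liver genes because they are alike while the counts of the genes are not. Counts per gene do not show whether transcripts began at the starts shown. They are also shown for 1 start of SLCO3A1 as an abundant family member. Capitals mark GTTAATNAT, a short motif that both liver promoters hold, found on the strand shown and searched on both strands. SLCO1B3 covers chr12:20810455-20810704 (+), SLCO1B1 chr12:21130944-21131193 (+) and SLCO3A1 chr15:91853458-91853707 (+).
SLCO1B3: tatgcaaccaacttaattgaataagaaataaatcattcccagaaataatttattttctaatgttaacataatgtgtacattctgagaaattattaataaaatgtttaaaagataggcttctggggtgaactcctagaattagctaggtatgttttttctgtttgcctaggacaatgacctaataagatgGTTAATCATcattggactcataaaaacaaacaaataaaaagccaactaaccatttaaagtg
SLCO1B1: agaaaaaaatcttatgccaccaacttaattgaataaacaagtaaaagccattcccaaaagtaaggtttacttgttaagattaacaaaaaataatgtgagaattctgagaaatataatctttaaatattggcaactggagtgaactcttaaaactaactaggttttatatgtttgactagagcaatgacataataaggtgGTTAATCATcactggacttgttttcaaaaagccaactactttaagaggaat
SLCO3A1: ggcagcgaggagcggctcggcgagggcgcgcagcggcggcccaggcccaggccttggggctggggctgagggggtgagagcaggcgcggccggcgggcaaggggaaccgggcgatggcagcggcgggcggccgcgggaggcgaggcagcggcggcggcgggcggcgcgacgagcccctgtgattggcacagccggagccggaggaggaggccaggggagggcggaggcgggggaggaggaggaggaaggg

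The SLCO1B1 and SLCO1B3 promoters were 80.5% identical over 226 aligned bases. Both hold GTTAATNAT, starting 51 bases before the start of SLCO1B1 and 61 bases before that of SLCO1B3, and 0.678% of 27305 promoters of this length hold it on either strand. Their G and C content was 29.2% for SLCO1B1 and 28.4% for SLCO1B3, against 80.4% for the SLCO3A1 promoter shown and a median of 58% over all promoters. The motif was chosen after the sequences were seen, and a match is not a bound site.

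The other genes of SLCO biology were taken from lists put together with earlier results of these data known. Of 18 transcription factors described for OATP genes, 11 had an adjusted p, and 0 rose and 1 fell in the authors' deposited table (9.09%, against 20.4% of all features tested). At an unadjusted p under 0.05 there were 2 more, both higher in siHOTAIR, for which no share over all features is given. Limma on the recovered reads called 2 higher and 1 lower among 9 factors with a mean of at least 20. Over all 11327 features of that fit, 2841 were called higher and 3185 lower, or 53.2% in either direction. The factor that fell was HIF1A, the oxygen-regulated subunit of hypoxia-inducible factor, with 1098, 923 and 767 normalized counts in siHOTAIR libraries against 2684 and 2497 in siNC libraries. Its siHOTAIR libraries lay far below both siNC libraries. Its log2 fold change in the authors' deposited table was -1.44, with a standard error of 0.187 and an adjusted p of 3.28e-13. HNF4A, a master regulator of hepatocyte genes, had a mean of 5.06 normalized counts in the authors' deposited table.

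Among 12 measured genes of thyroid hormone handling, 3 rose and 1 fell in the authors' deposited table (25 and 8.33%, against 20 and 20.4% of all features), with a median log2 fold change of 0.07. SLC7A5, the light chain of an amino acid exchanger that also carries thyroid hormones, rose 1.89-fold in the authors' deposited table, at a mean of 29389 normalized counts, with an adjusted p of 1.07e-34. SLC7A8, a related light chain, had 32.9, 46 and 49.6 normalized counts in siHOTAIR libraries, against 18.4 and 26.9 in siNC libraries, and rose with an adjusted p of 0.0242 by the authors' deposited table. The thyroid hormone receptors changed in opposite directions. THRB had 110, 91 and 106 normalized counts in siHOTAIR libraries, against 61.1 and 68.3 in siNC libraries. THRA had 263, 279 and 270.4 in siHOTAIR libraries, against 375 and 408 in siNC libraries. In the authors' deposited table THRB rose 1.57-fold with an adjusted p of 0.00695, and THRA fell 1.44-fold with an adjusted p of 4.07e-05.

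For prostaglandin handling, the substrates of SLCO2A1, 14 of 18 genes had an adjusted p, of which 2 rose and 4 fell in the authors' deposited table (14.3 and 28.6%, against 20 and 20.4% of all features), with a median log2 fold change of -0.05. Both cyclooxygenase genes, which encode the enzymes that start prostaglandin synthesis, were among those that fell. PTGS1 had 201, 164 and 213 normalized counts in siHOTAIR libraries, against 401 and 447 in siNC libraries. PTGS2 had 16.5, 7.49 and 7.89 in siHOTAIR libraries, against 36 and 47.1 in siNC libraries. Neither gene's groups overlap, and in the authors' deposited table the log2 fold change was -1.12 for PTGS1 (adjusted p 2.27e-16) and -1.70 for PTGS2 (adjusted p 5.41e-05). AKR1C3, which reduces prostaglandin D2 and also steroids, had 126, 127 and 119 normalized counts in siHOTAIR libraries, against 307 and 371 in siNC libraries, and fell with an adjusted p of 5.21e-21 by the authors' deposited table. PTGR1, which inactivates prostaglandins and leukotriene B4, fell 1.71-fold in the authors' deposited table, with an adjusted p of 1.73e-11. CBR1, a carbonyl reductase that converts prostaglandin E2, and PTGES2, a prostaglandin E synthase, rose 1.23-fold and 1.18-fold in the authors' deposited table, with adjusted p-values of 0.00212 and 0.0103. HPGD, the enzyme that degrades prostaglandins after uptake by OATP2A1, had an adjusted p of 0.698 by the authors' deposited table.

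Among ATP-driven exporters of OATP substrates, 8 of 13 genes had an adjusted p, of which 1 rose and 4 fell in the authors' deposited table (12.5 and 50%, against 20 and 20.4% of all features), with a median log2 fold change of -0.16. ABCC3, an exporter of bile acid and glucuronide conjugates, had 275, 303 and 311 normalized counts in siHOTAIR libraries, against 1468 and 1413 in siNC libraries. All siHOTAIR libraries were far below the siNC libraries, and the log2 fold change in the authors' deposited table was -2.27 (standard error 0.0929, adjusted p 7.68e-129). ABCG2, an exporter of sulfate conjugates and drugs, had 117, 115 and 93.5 normalized counts in siHOTAIR libraries, against 182 and 180.4 in siNC libraries, with an adjusted p of 9.3e-05 by the authors' deposited table. ABCC5 and ABCC1, exporters of cyclic nucleotides and of glutathione conjugates, fell 1.29-fold and 1.24-fold in the authors' deposited table, with adjusted p-values of 0.000417 and 0.000581. ABCC10, a related exporter, rose 1.55-fold in the authors' deposited table, with an adjusted p of 1.24e-07. ABCC2, the exporter of conjugated bilirubin into bile, had a log2 fold change of -0.01 in the authors' deposited table, with a standard error of 0.0844 and an adjusted p of 0.962.

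Membrane carriers of organic anions and cations from other families, most of them uptake carriers, were measured as well. An adjusted p was given for 5 of 12 in the authors' deposited table, of which 3 rose and 1 fell (60 and 20%, against 20 and 20.4% of all features), with a median log2 fold change of 0.55. SLC22A5, the carnitine carrier, had 620.3, 598 and 573 normalized counts in siHOTAIR libraries, against 440.4 and 444 in siNC libraries. SLC22A3, an organic cation carrier, had 171, 169 and 177 in siHOTAIR libraries, against 122 and 109.8 in siNC libraries. Both rose, by 1.35-fold and 1.47-fold in the authors' deposited table, with adjusted p-values of 5.4e-05 and 0.00265. SLC51A, a subunit of a bile acid and steroid carrier, rose 1.97-fold with an adjusted p of 0.0278, and SLC47A1, a cation extrusion carrier, fell 1.4-fold with an adjusted p of 0.00589 by the authors' deposited table. SLC10A1, the sodium-dependent bile acid carrier of hepatocytes, had a mean of 0.895 normalized counts in the authors' deposited table and no adjusted p.

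Steroid sulfates and bilirubin conjugates are further OATP substrates, and 10 of 19 genes that handle them had an adjusted p, of which 2 rose and 4 fell in the authors' deposited table (20 and 40%, against 20 and 20.4% of all features), with a median log2 fold change of -0.15. HMOX1, the heme oxygenase that starts bilirubin formation, had 532, 498 and 500.2 normalized counts in siHOTAIR libraries, against 302 and 317 in siNC libraries, and rose with an adjusted p of 3.16e-10 by the authors' deposited table. The siHOTAIR libraries were all above the siNC libraries. BLVRB, a biliverdin reductase, fell 1.25-fold in the authors' deposited table, with an adjusted p of 0.0167. PAPSS1 and PAPSS2, which make the sulfate donor of sulfotransferases, changed in opposite directions in the authors' deposited table: PAPSS1 fell 1.54-fold (adjusted p 5.68e-08) and PAPSS2 rose 1.22-fold (adjusted p 0.0136). The steroid dehydrogenase genes HSD17B7 and HSD17B1 fell 1.45-fold and 1.27-fold in the authors' deposited table, with adjusted p-values of 0.0023 and 0.0376. STS, the sulfatase that cleaves steroid sulfates, had an adjusted p of 0.214 by the authors' deposited table.

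Scaffold proteins and membrane partners described for OATPs made up the last list, with 9 of 10 genes having an adjusted p, of which 1 rose and 5 fell in the authors' deposited table (11.1 and 55.6%, against 20 and 20.4% of all features), with a median log2 fold change of -0.20. NHERF2, a PDZ-domain scaffold under the cell membrane, had 178, 214 and 246 normalized counts in siHOTAIR libraries, against 907 and 967 in siNC libraries. Its groups are widely apart, and it fell 4.38-fold in the authors' deposited table, with an adjusted p of 8.22e-74. ATP1B1, a subunit of the sodium pump, fell 1.69-fold in the authors' deposited table, with an adjusted p of 4.91e-19. The actin linkers MSN, EZR and RDX fell by smaller amounts, 1.22-fold, 1.19-fold and 1.15-fold in the authors' deposited table, with adjusted p-values of 4.51e-05, 0.00206 and 0.0251. PDZK1, the scaffold best known for binding OATP tails, had 22.5, 17.1 and 20.3 normalized counts in siHOTAIR libraries, against 14.2 and 19 in siNC libraries, and these groups overlap.

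**Figure D5:**
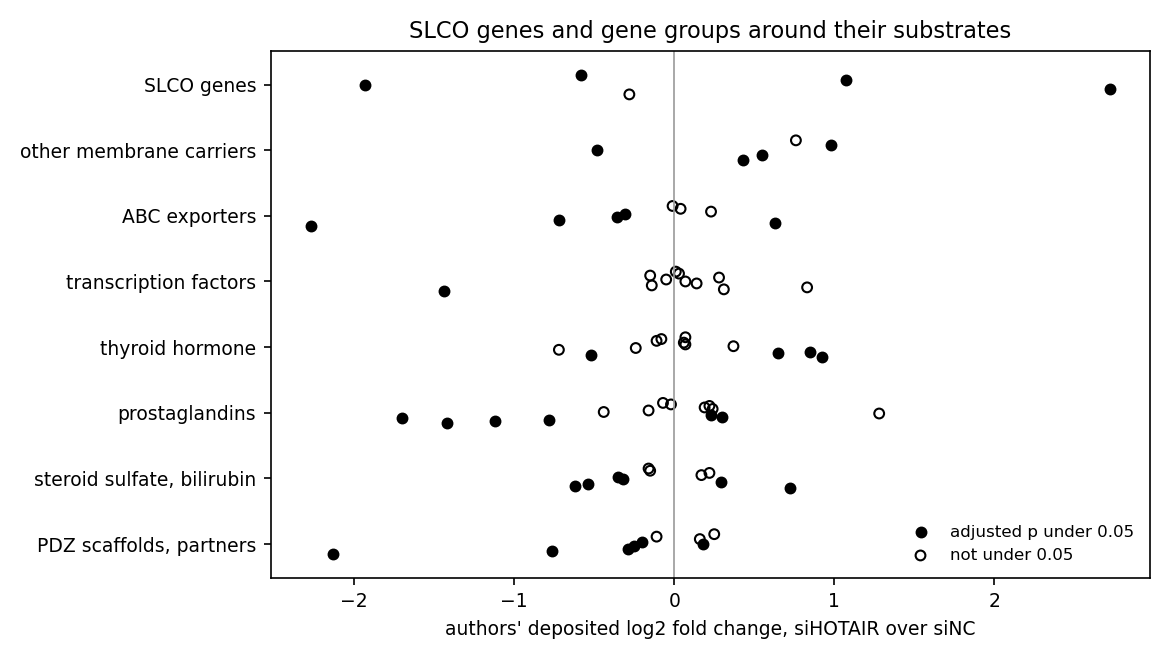
Log2 fold change of siHOTAIR over siNC in the authors' deposited table, 1 point per gene with an adjusted p, for the SLCO genes and the 7 gene lists, with filled points for an adjusted p under 0.05. SLCO1C1 at 2.72 is the highest point, and ABCC3 at -2.27, NHERF2 at -2.13 and SLCO2A1 at -1.93 are the lowest.

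The genes whose pattern over the 5 libraries was nearest to that of each SLCO gene past the threshold were found among 11301 features with a symbol and a mean of at least 20, by the Euclidean distance between log2 of normalized count plus 1 centred on its mean. For SLCO1C1 these were APPAT, NKAIN4, IL12RB2, CRB2 and SYCP2, at distances of 0.307 to 1.09. APPAT had 207, 224 and 196 normalized counts in siHOTAIR libraries, against 36 and 15.7 in siNC libraries. It was picked for nearness over these same libraries, so its lower value in siNC library b is no separate observation. IL12RB2, also among the nearest, had 10.0 and 10.1 in siNC libraries a and b. For SLCO2A1 they were MCFD2, UBE3B, SLC16A6, KATNAL2 and FCF1, at 0.122 to 0.214. For SLCO3A1 they were NR1D2, C9orf78, GAS1, CDS2 and RIPK2, at 0.0889 to 0.112, and for SLCO4A1 they were PHF20, MFN2, ZMIZ1, ACSF2 and WDR33, at 0.0231 to 0.0552. MFN2, a mitochondrial fusion protein, had 1327, 1379 and 1435 normalized counts in siHOTAIR libraries, against 2079.7 and 2055 in siNC libraries. The distances compare 5 libraries only and describe likeness of pattern.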

How the data were processed

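Libraries were made with a stranded kit from total RNA after removal of ribosomal RNA, per the labels' protocols. For the authors' processing, the submitters' processing notes name HTSeq 0.6.1, DESeq, DESeq2 and hg19. No aligner, annotation or strand setting is given. The authors' deposited table has the columns of DESeq2 output, per the file headers. The authors' signal values are averages of size-factor-scaled counts, and their log2 columns hold fold changes and standard errors. The authors' score is the fold change divided by its error, and the deposited p-values are unadjusted or adjusted. Benjamini-Hochberg adjustment over 14597 features returned all deposited adjusted p-values.

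Reads per library were recovered from the deposited means, which are whole-number sums of 5 steps. All 10268 features with a mean up to 100 had 1 solution. For means of 100 to 2000, whole-number candidates were kept when a negative binomial fit returned the deposited log2 fold change within 1e-06, which solved 8422 of 8423; this step was devised after the files were seen. The 770 features above 2000 were not tried. A step belongs to siHOTAIR or siNC by the sign of the deposited fold change of features with a single read there. Recovery was tested on simulated data (126 of 126 and 110 of 110 right). Replicate numbers of the recovered libraries are unknown, so they are lettered by size factor, which were 1.154, 0.9341 and 0.8877 for siHOTAIR and 1.194 and 0.8925 for siNC. A planned count test was replaced by limma 3.58.1 (R 4.3.3), since the deposited comparison has no columns of counts; it was also tested on simulated data.

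Symbols were matched through RefSeq GRCh38.p14, 19108 by gene ID and 386 by accession, and SLCO1B7 through GENCODE 29. Transcript lengths came from GENCODE 29 and promoters from RefSeq GRCh38.p14, not from hg19. The members and lists were chosen with earlier results of these data known. Named genes are every SLCO gene, HOTAIR, up to 6 genes per list with the smallest adjusted p under 0.05, and the 5 nearest features; chromosomal neighbours, CPS1, ASGR1, HNF4A, SLC10A1, HPGD, STS, ABCC2, PDZK1, KRT7 and EPCAM were added after their values were seen. A few genes of the lists are not reported here by name.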

Additional observations from a re-analysis of the deposited data

How the results depend on the processing

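The number of SLCO genes called was 4, and it was 3 or 4 under all 16 alternatives: 3 with a 2-fold threshold or in the authors' filtered list, which both leave out SLCO4A1, and 4 with an adjusted p under 0.01, with adjustment over all features with a p-value and under every limma setting. None of 67 alternative fold changes reversed, and no limma setting moved a gene with a deposited adjusted p across the threshold. Of all features with an adjusted p, 40.4% passed in the authors' deposited table and 6.25% with the 2-fold threshold. The filtered list holds 3.91% of all features, and the limma settings on all 5 libraries called 33.2 to 53.8% of theirs. The counts of SLCO genes concern 5 genes with an adjusted p, and all settings use the same reads. The unshrunken log2 ratio, which has no test, was 3.06 for SLCO1C1 against the deposited 2.72. Leaving out 1 library at a time gave log2 fold changes of 2.48 to 3.60 for SLCO1C1, 1.04 to 1.11 for SLCO3A1, -0.61 to -0.56 for SLCO4A1, -2.13 to -1.98 for SLCO2A1 and -0.42 to -0.23 for SLCO1B3, with 4 genes called each time. When siNC is reduced to 1 library, that library is assumed to vary like the siHOTAIR group. The level per kilobase of SLCO2A1 was 2.82 with its longest and 12.9 with its median transcript length. No paired analysis was possible because the recovered libraries carry no replicate numbers. Depth limits SLCO1B1 and SLCO4C1, with 5 and 8 reads in all. It also limits the siNC level of SLCO1C1, with 21 reads, and the siHOTAIR level of SLCO2A1, with 31 reads.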
